A study of Homo sapiens with 2 samples.

Results

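The genes described here encode collagens, matrix glycoproteins and the enzymes that crosslink them. A list of 33 genes defined the set, and every probe whose gene name was one of these symbols, current or former, and whose spot was not marked as poor was taken. This gave 42 of 24456 usable gene probes, and each of the 33 genes had at least 1 probe. The array comparison set MDA-MB-231 cells given 2 Gy of ionizing radiation (IR) on each of 4 days (2 Gy x 4) against untreated cells of the same line (0 Gy). The line was established from a human breast cancer that lacks hormone receptors and HER2, and the cells of each condition grew on Matrigel, a basement membrane preparation that served as 3D laminin-rich extracellular matrix (lrECM). Each condition was 1 sample on 1 array, so no spread between replicates could be had, no test was possible, and every ratio below is that of these 2 arrays. All cells belonged to 1 line and lay on a matrix supplied from outside, which limits the cultures as a model of tissue that makes its own matrix.

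Collagens are triple helices that are modified and folded in the endoplasmic reticulum, secreted, trimmed and assembled into fibrils or networks, which lysyl oxidases then crosslink through oxidized lysines. Fibronectin and other glycoproteins tie these networks to integrins on the cell surface, and proteoglycans space the fibrils and hold growth factors. In breast tissue fibroblasts make most of the fibrillar collagen, while carcinoma cells of mesenchymal type are known to make fibronectin, thrombospondin-1, CCN proteins and lysyl oxidases.

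Each spot gave 1 Cy5 brightness, and the spot values below are medians of the spot as scanned, with no background taken off. The median gene probe was 51.9 units on the 2 Gy x 4 array and 57.9 on the 0 Gy array, so the 2 Gy x 4 array was dimmer at the median gene probe. The median blank spot was 13.6 on the 2 Gy x 4 array and 12.2 on the 0 Gy array. A probe was called detected where its spot was brighter than 95% of blank spots on that array, a limit of 16.0 on the 2 Gy x 4 array and 14.2 on the 0 Gy array. The main ratio, 2 Gy x 4 over 0 Gy, was taken after background correction with an added offset of 50 and quantile normalization, and the offset pulls the ratios of dim spots towards 1. A ratio from the authors' deposited value table, which carries no such offset, stands beside it. Ratios also drifted across the chip, whose 104 columns ended in a region of lower ratios, and a position-corrected ratio was therefore taken by dividing by the median ratio of neighbouring detected probes, those at most 11 rows and 8 columns away.

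Of the 33 genes, 31 were detected on both arrays, and these had both higher and lower ratios. BGN and TGFBI were at least 1.5-fold lower after IR and LOXL1 was at least 1.5-fold higher, and the rest lay within 1.5-fold. By direction alone 18 of the 31 (58.1%) were lower and 12 higher, against 44.6% of all genes lower, and SERPINH1 was equal on both arrays. The 2 lower genes were 6.45% of the 31, against 1.0% of all 17778 genes tested, and the 1 higher gene was 3.23%, against 0.298%. In the value table the 3 lower genes (BGN, TGFBI and THBS2) were 9.68% of the set, against 6.50% of all genes, and LOXL1 was the 1 higher gene, against 3.98%. The median log2 ratio of the set was -0.08, against 0.01 over all genes, and in the value table it was -0.15, against 0.04. After position correction none was 1.5-fold lower, against 0.439% of all genes, LOXL1 was 1.5-fold higher, against 0.208%, and 23 of the 31 had a ratio below 1, against 49.1% of all genes. In the value table with that correction 2 were 1.5-fold lower (BGN and THBS2), against 3.66% of all genes, and 2 higher (COL1A1 and LOXL1), against 3.01%. COL3A1 was detected on the 0 Gy array only, with a spot of 14.4 on the 2 Gy x 4 array and 16.7 on the 0 Gy array, and COL5A2 was detected on neither.

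**Figure D1:**
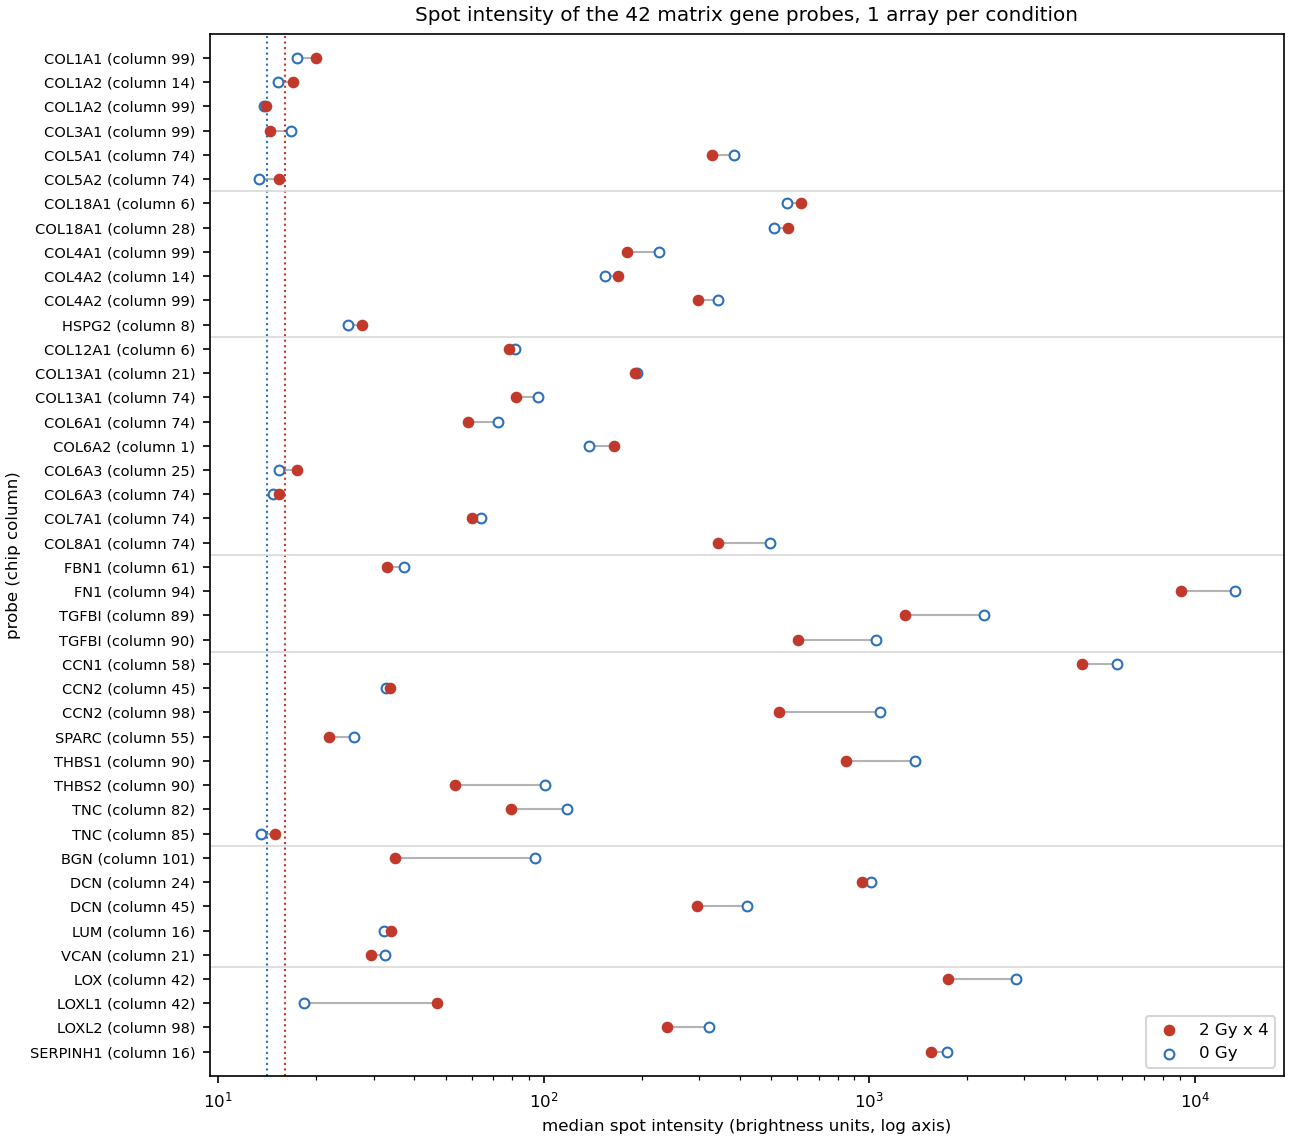
Median spot brightness (log scale, as scanned) of the matrix gene probes on the 2 Gy x 4 array and the 0 Gy array, by gene, with the blank level marked. FN1 and CCN1 were the brightest, at 9072 and 4495 units after 2 Gy x 4 and 13299 and 5781.5 units without IR, and the fibrillar collagens COL1A1, COL1A2, COL3A1 and COL5A2 lay near the blank spots.

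The crosslinking enzymes gave opposite directions. LOX, the founding lysyl oxidase, which oxidizes lysines of collagen and elastin, had a spot of 1740.4 on the 2 Gy x 4 array and 2833 on the 0 Gy array, a ratio of 0.682 in the main values and 0.709 in the value table. LOX lay in column 42, away from the edge, where the median ratio of its neighbours on the chip was 1.02, and its position-corrected ratio was 0.670. Across all 13 alternative settings its ratio stayed between 0.668 and 0.738, below 1 each time and short of 1.5-fold each time, and 3.70% of the 1000 probes nearest in signal had a ratio as low. LOXL1, a relative needed for elastic fibre upkeep, had a spot of 47.1 after IR and 18.4 without, not far above the detection limit of 14.2. Its ratio was 1.54 in the main values and 6.34 in the value table, where the underlying values were 18.6 after IR and 2.93 without, so its size rested on a spot close to the blank level. None of the 1000 probes nearest in signal had a ratio as high. The platform annotation ties this probe to a predicted non-coding RNA record of LOXL1, so the value may not stand for the coding transcript. LOXL2, which crosslinks collagen IV, had 239.8 units after IR and 322 without and a ratio of 0.838, but it lay in column 98 and its position-corrected ratio was 0.994. SERPINH1, which encodes the collagen chaperone HSP47, had a spot of 1549.7 after IR and 1738 without, equal after normalization. With the local background subtracted, which was 1419 after IR and 952 without, its ratio was 0.281.

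The promoters of LOX and LOXL1 are shown because the 2 probes shared a column and differed in opposite directions. Each window is the 250 bases before the RefSeq start in GRCh38.p14, read in the direction of the gene. LOX lies on the minus strand at chr5:122078260-122078509 and LOXL1 on the plus strand at chr15:73926212-73926461, and capitals mark the core of the hypoxia response element (ACGTG or GCGTG, on either strand as CACGT or CACGC, where CACGTG would count on both).
LOX promoter: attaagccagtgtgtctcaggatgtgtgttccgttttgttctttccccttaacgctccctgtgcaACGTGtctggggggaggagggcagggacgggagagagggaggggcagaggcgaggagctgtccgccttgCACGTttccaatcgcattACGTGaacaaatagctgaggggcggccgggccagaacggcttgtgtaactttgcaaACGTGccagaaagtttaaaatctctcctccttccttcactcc
LOXL1 promoter: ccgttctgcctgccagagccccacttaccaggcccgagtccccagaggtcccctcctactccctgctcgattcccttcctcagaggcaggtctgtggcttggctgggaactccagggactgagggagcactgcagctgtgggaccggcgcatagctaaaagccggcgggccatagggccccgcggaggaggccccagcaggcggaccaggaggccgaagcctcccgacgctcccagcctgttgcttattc
LOX has 3 windows in the table, and the one shown, the farthest upstream, held 4 copies of ACGTG, a number reached by 0.658% of 34788 promoter windows, while the other two, which overlap, held 1 copy each of ACGTG and GCGTG. The LOXL1 window held neither core. One or the other core was present in 43.1% of all windows and in at least 1 window of 10 of the 23 matrix genes with a window. A match describes letters only and says nothing of a factor at these genes.

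The matricellular genes, whose products bind matrix and receptors without building fibrils, had ratios of 1 direction. All 6 (CCN1, CCN2, SPARC, THBS1, THBS2 and TNC) had ratios below 1 in the main values, in the value table and after position correction of each, with a median log2 ratio of -0.34 in the main values, against 0.01 over all genes, though none reached 1.5-fold in the main values. With the local background subtracted the direction of CCN1 turned, and 5 of 6 stayed below 1. THBS1, which encodes thrombospondin-1, an activator of latent TGF-beta, had 849 units on the 2 Gy x 4 array and 1379.7 on the 0 Gy array and a ratio of 0.684. THBS2, its close relative, had 53.5 units after IR and 101 without, a ratio of 0.710 in the main values and 0.523 in the value table. Both lay in column 90, and position correction moved THBS1 to 0.748 and THBS2 to 0.773. In the value table with that correction THBS1 was at 0.860 and THBS2 at 0.643. TNC, the gene for tenascin-C, an anti-adhesive glycoprotein of tumour stroma, was read by 1 detected probe with 79.5 units after IR and 118 without and a ratio of 0.815, while its other probe was at the blank level on both arrays. SPARC, a collagen-binding glycoprotein, was dim, with 21.8 units after IR and 26.1 without and a ratio of 0.948, which was 0.679 in the value table.

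CCN1 and CCN2, formerly CYR61 and CTGF, encode secreted integrin ligands that are widely used as readouts of YAP and TEAD. CCN1 was the second brightest gene of the set, with 4495 units after IR and 5781.5 without, a ratio of 0.888 in column 58 where neighbouring probes had a median of 0.999. CCN2 had 2 probes that did not agree. The brighter one, in column 98, had 528 units on the 2 Gy x 4 array and 1076 on the 0 Gy array and a ratio of 0.561, the lowest of any matrix probe in the main values. Around it the median ratio was 0.827, and its position-corrected ratio was 0.678. In the value table the median around it was 0.658, and its position-corrected ratio there was 0.852. The other CCN2 probe, in column 45, had 33.6 units after IR and 32.7 without and a ratio of 1.05, and it was assigned to CCN2 by the platform annotation only, through a genomic record. The mean for the gene was 0.767.

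The promoters of CCN2, THBS1 and THBS2 are shown because they hold the core bound by TEAD factors, of which CCN2 is a standard target. Capitals mark the TEAD core, GGAATG, or CATTCC on the other strand. The windows are chr6:131951373-131951622 on the minus strand for CCN2, chr15:39580829-39581078 on the plus strand for THBS1 and chr6:169253847-169254096 on the minus strand for THBS2.
CCN2 promoter: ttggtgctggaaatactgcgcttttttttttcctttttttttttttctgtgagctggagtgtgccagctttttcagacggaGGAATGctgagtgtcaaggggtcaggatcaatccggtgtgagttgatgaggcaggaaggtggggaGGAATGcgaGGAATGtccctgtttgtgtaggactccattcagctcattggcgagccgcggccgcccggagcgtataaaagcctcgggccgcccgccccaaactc
THBS1 promoter: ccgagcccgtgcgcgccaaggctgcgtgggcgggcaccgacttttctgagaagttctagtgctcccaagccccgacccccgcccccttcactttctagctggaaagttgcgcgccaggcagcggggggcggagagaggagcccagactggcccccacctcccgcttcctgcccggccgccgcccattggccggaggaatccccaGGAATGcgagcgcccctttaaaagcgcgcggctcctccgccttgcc
THBS2 promoter: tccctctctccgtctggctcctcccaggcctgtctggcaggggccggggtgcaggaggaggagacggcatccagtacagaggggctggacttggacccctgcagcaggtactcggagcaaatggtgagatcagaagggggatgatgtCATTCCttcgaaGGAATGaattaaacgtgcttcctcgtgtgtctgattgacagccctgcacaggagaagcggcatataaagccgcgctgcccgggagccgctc
CCN2 held 3 cores, a number reached by 0.0834% of the 34788 windows, THBS2 held 2 and THBS1 held 1. These windows were picked for their cores: BGN, TGFBI and LOX had main ratios below those of THBS1 and THBS2 and no core. At least 1 core was found in 6 of the 23 matrix genes with a window and in 11.9% of all windows. The others with a core were COL12A1, FBN1 and SPARC, with main ratios of 1.05, 0.984 and 0.948. The AP-1 site TGANTCA was found in none of the 23 and in 6.59% of all windows.

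**Figure D2:**
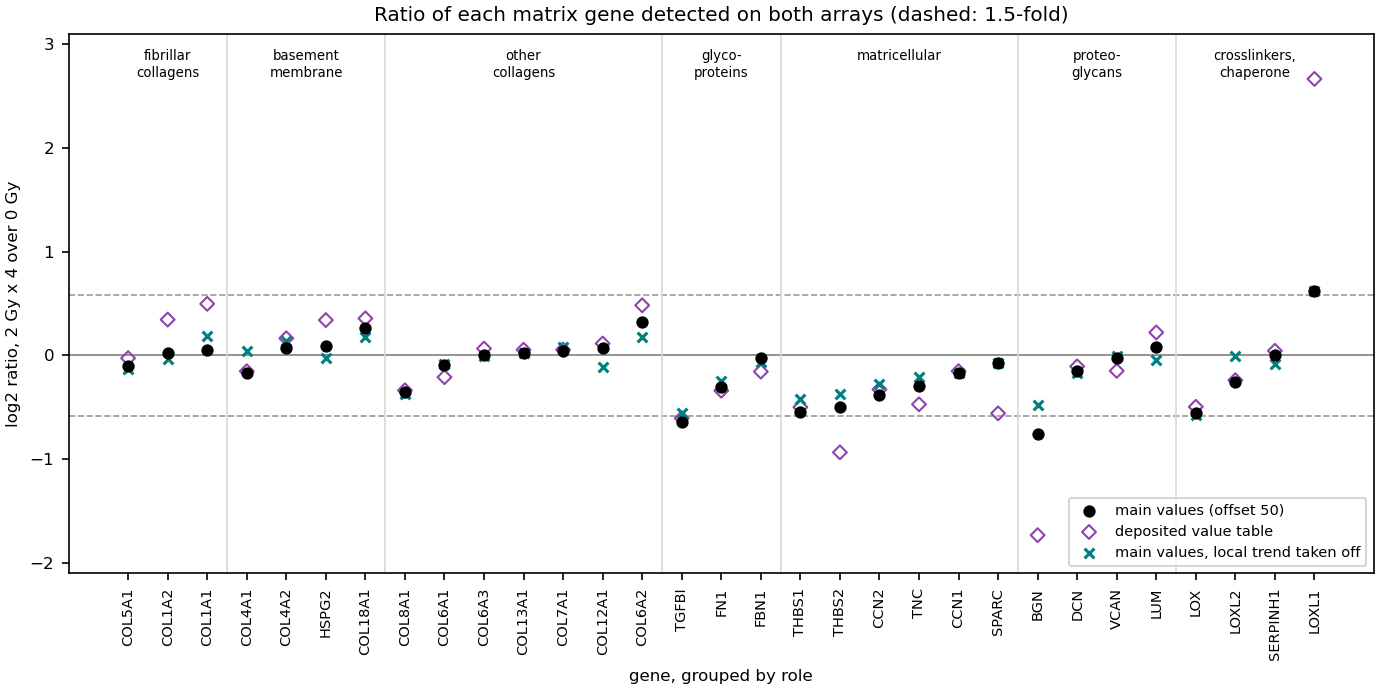
Ratio of each matrix gene detected on both arrays, 2 Gy x 4 over 0 Gy on a log2 scale, by role, in the main values, the deposited value table and after position correction. All 6 matricellular genes lay below 0, LOX lay at a ratio of 0.682 and 0.709 in the first 2 of these, and LOXL1 stood apart at 1.54 and 6.34.

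The 3 adhesive and microfibril glycoproteins had ratios below 1. FN1, which encodes fibronectin, gave the brightest probe of the set, with 9072 units on the 2 Gy x 4 array and 13299 on the 0 Gy array and a ratio of 0.811 in column 94, which was 0.845 after position correction. TGFBI, which encodes a secreted integrin-binding protein induced by TGF-beta, was read by 2 probes that agreed, with 1284.5 units after IR and 2258.5 without in column 89, and 604 units after IR and 1051 without in column 90. Their ratios were 0.631 and 0.649, and the gene ratio was 0.640, or 0.681 with position correction, just inside 1.5-fold. In the value table with that correction the gene ratio was 0.778. FBN1, the gene for the microfibril protein fibrillin-1, was dim and had a ratio of 0.984, which was above 1 with median scaling. The local background around some of these spots was high, at 9095 for FN1 after IR, above the spot itself, and with it subtracted TGFBI had a ratio of 1.16 and FN1 of 0.0272.

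Of 4 proteoglycan genes, BGN was the only one past 1.5-fold in the main values. BGN, which encodes biglycan, a small leucine-rich proteoglycan that binds collagen and TGF-beta, had 34.9 units on the 2 Gy x 4 array and 94.0 on the 0 Gy array. Its ratio was 0.591 in the main values, 0.301 in the value table and 0.793, short of 1.5-fold, with the local background subtracted. Of the 1000 probes nearest in signal, which were not matched for chip column, 0.200% were as low in the main values. The probe lay in column 101, where the median ratio of its neighbours was 0.824, and position correction moved it to 0.718 in the main values and 0.458 in the value table. DCN, which encodes decorin, a relative of biglycan, had 2 probes of opposite direction, with 948 units after IR and 1010.1 without and a ratio of 1.04 in column 24, and 296 units after IR and 422 without and a ratio of 0.784 in column 45. The local median was near 1 around both, at 1.02 and 1.01. VCAN, the gene for the large hyaluronan-binding proteoglycan versican, had a ratio of 0.986, and LUM, the gene for the fibril-spacing lumican, one of 1.06.

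No collagen gene passed 1.5-fold in the main values. Of the 3 detected fibrillar genes, 4 detected basement membrane genes (perlecan included) and 7 detected other collagens, none reached it in either direction. COL5A1, which encodes a chain that nucleates collagen I fibrils, was the only fibrillar gene clearly above the blank spots, with 329.6 units after IR and 385 without and a ratio of 0.934. COL1A1 and COL1A2, the chains of collagen I, had ratios of 1.04 and 1.01, and COL1A1 had spots of only 19.96 after IR and 17.4 without, so its value-table ratio of 1.41 rested on values of 3.50 after IR and 2.48 without. COL8A1, a short-chain network collagen of vessel walls, had the lowest collagen ratio in the main values, 0.783, with 343 units after IR and 494 without in column 74, and 0.773 after position correction. COL6A2, a chain of the beaded-filament collagen VI, had the highest collagen ratio in the main values, 1.25, with 165 units after IR and 138 without in column 1, which was 1.13 after position correction and 0.980 with the local background subtracted, while COL6A1 was at 0.939 and COL6A3 at 1.0. COL13A1, a transmembrane collagen, had probes at 1.06 in column 21 and 0.969 in column 74. COL7A1 of anchoring fibrils and the fibril-associated COL12A1 had ratios of 1.03 and 1.05, and after position correction COL12A1, in column 6, was at 0.928.

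In the basement membrane, COL18A1, whose product carries endostatin, was read by 2 probes that agreed, with 618 units on the 2 Gy x 4 array against 558.5 on the 0 Gy array, and 561 units after IR and 508 without. Both ratios were 1.20, in columns 6 and 28, and the gene ratio was 1.13 after position correction but 0.880 with the local background subtracted. COL4A1 and COL4A2, the chains of the most widespread collagen IV, are divergent neighbours that share a promoter. COL4A1 had 179.8 units after IR and 226 without and a ratio of 0.890, and COL4A2 had 298 units after IR and 344 without and a ratio of 0.946 in its probe of the same column, 99. The other COL4A2 probe, in column 14, had 169 units after IR and 154 without and a ratio of 1.17. Thus the 2 probes of COL4A2 differed by more than COL4A1 and COL4A2 did in column 99. After position correction COL4A1 was at 1.03 in the main values and 1.28 in the value table. HSPG2, the gene for perlecan, was dim, with a ratio of 1.06.

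The 125 bases below, chr13:110307159-110307283 of GRCh38.p14 on the plus strand, lie between the 2 starts, without the base next to the COL4A1 start. They are shown because both genes are read outwards from them. Capitals mark the GC box, GGGCGG, which on the other strand reads CCGCCC.
COL4A1 and COL4A2: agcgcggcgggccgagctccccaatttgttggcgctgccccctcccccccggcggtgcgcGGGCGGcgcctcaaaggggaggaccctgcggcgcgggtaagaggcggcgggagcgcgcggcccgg
At least 1 window held a GC box in 17 of the 23 matrix genes with a window. Among all windows, counted singly, 42.6% held one. The 2 measures are unlike, because some matrix genes had several windows. The box marked above counted for both COL4A1 and COL4A2.

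The lower ratios were unevenly placed on the chip. Of the 37 matrix probes detected on both arrays, 12 (32.4%) were in columns 79 to 104, as were 24.4% of detected probes overall. In these columns 11 of the 12 were below 1 in the main values. There 4 were at least 1.5-fold lower (BGN, CCN2 and both TGFBI probes), against 4.09% of all probes in these columns. The median ratio of the 12 was 0.759, against 0.936 for all probes there. In the value table the same 4 probes and THBS2 were at least 1.5-fold lower, against 23.0% of all probes there. The median of the 12 was then 0.714, against 0.841. In the first 78 columns 10 were below 1 and 14 above in the main values, with a median ratio of 1.02, as for all probes of those columns. After position correction the 12 edge probes had a median log2 ratio of -0.31 in the main values and -0.21 in the value table. The medians of the 5 probes in columns 79 to 91 were -0.42 and -0.23. Those of the 7 probes in columns 92 to 104 were -0.0091 and 0.28. The lower ratios of LOX, COL8A1, CCN1 and the DCN probe of column 45 lay outside the edge columns. The part of chip position in each ratio was not tested beyond this correction.

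**Figure D3:**
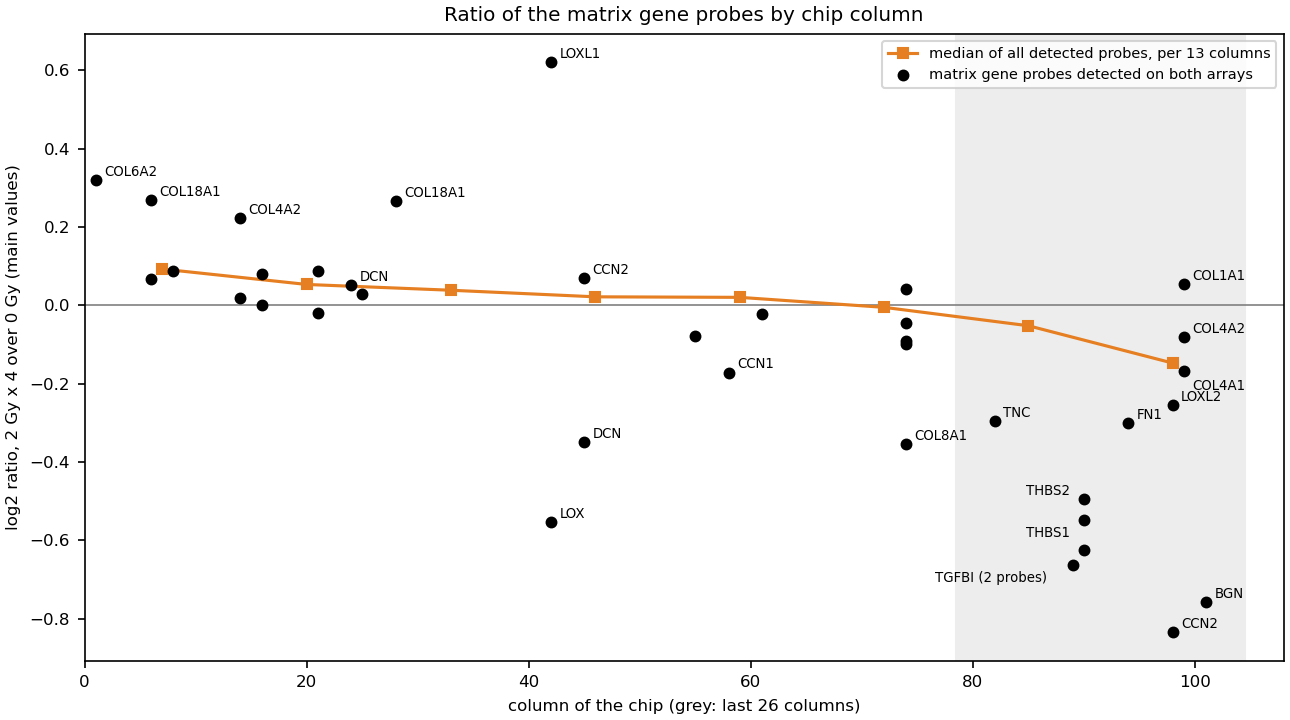
Log2 ratio (2 Gy x 4 over 0 Gy, main values) of each matrix probe detected on both arrays against chip column, with the median of all detected probes per 13 columns as a line and columns 79 to 104 shaded. The line falls towards the right, 11 of the 12 shaded matrix probes lie below 0, and LOX and LOXL1 share column 42.

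**Figure D4:**
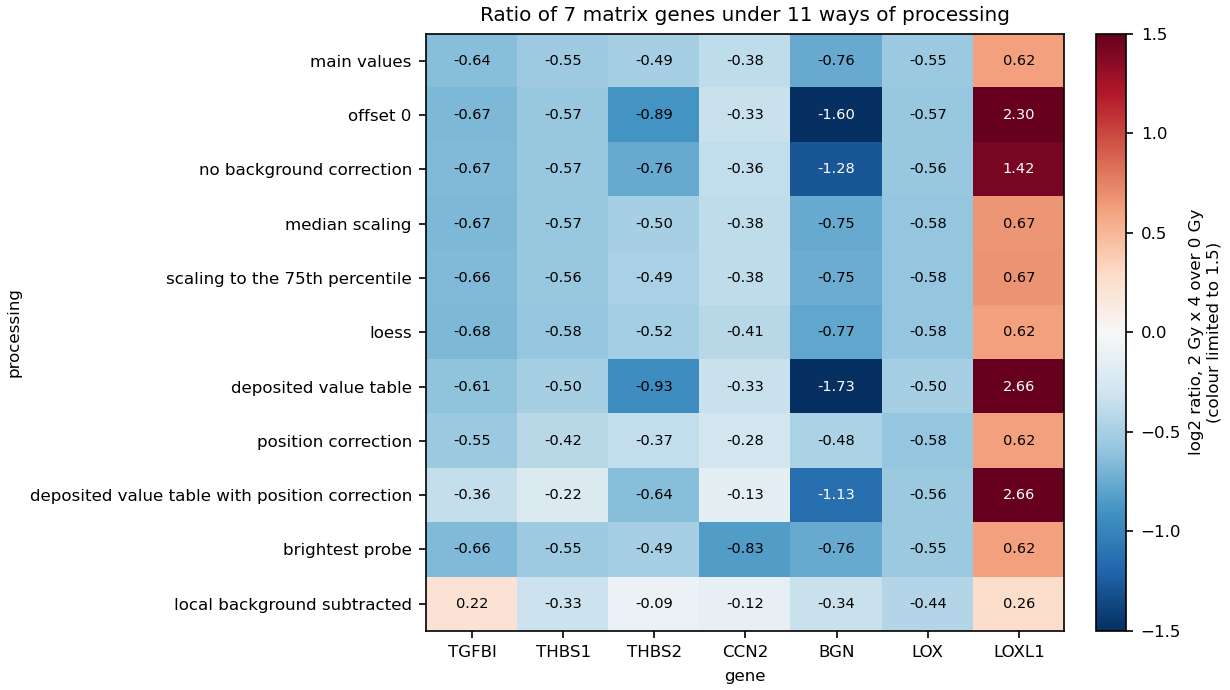
Log2 ratio (2 Gy x 4 over 0 Gy) of 7 matrix genes, in columns, under the main and 10 other ways of processing, in rows, with blue for lower and red for higher. As a plain ratio LOX stayed between 0.668 and 0.738 throughout, whereas LOXL1 ran from 1.20 with the local background subtracted to 6.34 in the value table and TGFBI crossed 1.

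Few related matrix genes outside the set had large ratios. Of 21 other collagen genes detected on both arrays 11 were lower and 10 higher, and none reached 1.5-fold in the main values, where COL11A1, a minor fibrillar chain, was lowest at 0.809. By the value table, 4 of the 21 were at least 1.5-fold lower, or 19%, against 6.50% of all genes. These were COL6A5 at 0.429, COL11A1 at 0.444, COL20A1 at 0.597 and COL9A2 at 0.648. All 4 were dim, with spots from 17.1 (COL6A5) to 34.2 (COL20A1) after IR and from 21.5 to 52.0 without. COL6A5 lay in column 103. In the value table with position correction 3 of the 21 were at least 1.5-fold lower (14.3%), against 3.66% of all genes. Among 21 genes of collagen modification and secretion 13 were lower and 8 higher, with none past 1.5-fold in the main values. P4HA1, a prolyl 4-hydroxylase subunit needed for a stable triple helix, had 1457 units on the 2 Gy x 4 array and 2354 on the 0 Gy array and a ratio of 0.691 in column 57, and FKBP14, a folding enzyme of procollagen, had 8052 units after IR and 7282 without and a ratio of 1.30. SEC24D, of the coat that carries procollagen, and PLOD1, a lysyl hydroxylase, were at 0.828 and 0.833. Of 11 genes of procollagen processing and the remaining lysyl oxidases 5 were lower and 6 higher. BMP1, which trims procollagen, was at 0.760 in column 98, LOXL4 at 0.797 and PCOLCE2, an enhancer of that trimming, at 0.881.

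Elastic fibre genes gave 10 lower and 7 higher of 17. EFEMP1, which encodes fibulin-3, was the 1 gene past 1.5-fold in the main values, with 561 units after IR and 955 without. Its ratio was 0.660 in column 102, or 0.743 after position correction. In the value table with that correction it was 0.903. Other matricellular and CCN genes split evenly, 10 and 10 of 20, and included ECM1 at 1.35 and AGRN, the gene for agrin, at 0.803. AGRN lay in column 102 and was at 0.919 after position correction, and at 1.11 in the value table with that correction. Among 23 other genes of proteoglycans and hyaluronan 10 were lower and 12 higher, with HAPLN3, a hyaluronan link protein, at 0.669 and HAS2, a hyaluronan synthase, at 1.41. No gene of these last 2 groups reached 1.5-fold in the main values. By the value table the matricellular and CCN genes gave 1 lower (5%) and 1 higher (5%, ECM1 at 2.06). Those of proteoglycans and hyaluronan gave 2 lower (8.70%) and 1 higher (4.35%, HAS2 at 1.57). The elastic fibre genes gave 1 lower (5.88%), those of procollagen processing 1 lower (9.09%) and those of collagen modification and secretion 0. The shares of all genes were 6.50% lower and 3.98% higher. The median log2 ratios of these 6 related lists lay between -0.035 for collagen modification and secretion and 0.010 for proteoglycans and hyaluronan, against 0.014 over all genes.

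All 6 markers of MDA-MB-231 cells were detected on both arrays, with ratios between 0.804 (MSN) and 1.21 (AXL). ESR1 was detected on neither array and PGR was not detected on both. ERBB2, GATA3, KRT19 and CDH1, which were listed as low in this line, were detected on both. KRT19 was bright, with 1778 units after IR and 2248 without, above every listed marker of the line but VIM. CDH1 had 155 units after IR and 179 without, GATA3 97.3 and 88.7, and ERBB2 70.9 and 70.1. EGFR, a listed marker of the line, had 62.9 and 70.1. Of 8 fibroblast markers 6 were detected on both arrays, and 5 of these had ratios below 1 in the main values and none above. In the main values 1 of the 6 was at least 1.5-fold lower. By the value table it was 4 of the 6 (66.7%), against 6.50% of all genes. With position correction of those values it was 3 (50%), against 3.66%. PDGFRA, among the 4, was dim, with 18.6 units after IR and 22.4 without. PDGFRB and FAP, also among them, lay in columns 79 to 104, where 23.0% of all probes were that low. Of 5 endothelial markers detected on both arrays 2 (40%) were that low by the value table, and of 3 leukocyte markers 0. PDGFRB had 39.6 units after IR and 99.2 without and a ratio of 0.606 in column 92, PDPN had a ratio of 0.718 in column 34, and THY1 and DPT were not detected. The summed normalized signal of the fibroblast list was 6530 on the 2 Gy x 4 array and 6653 on the 0 Gy array. Most of it came from S100A4, which was equal on both arrays. The part of the fibroblast markers in the matrix ratios was not tested.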

How the data were processed

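Total RNA from 1 sample per condition was amplified, labelled with Cy5 and hybridised to the 3D-Gene Human oligo chip 25k (Toray). The authors deposited 1 scanner file per array with the median intensity of each spot and of its local background, and a table of processed intensities for both arrays. The sources used here do not say how the table was made. Its values equal the spot intensity minus a constant near the blank spots (13.7 on the 2 Gy x 4 array and 12.3 on the 0 Gy array) and divided to a median of 25, to within 0.488% for values above 10.

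Spot medians were corrected with limma 3.58.1 (R 4.3.3) by normexp with offset 50 and quantile normalized between the arrays over 24456 gene probes, without control, blank and poor spots. Probes detected on at least 1 array were averaged per gene on the log2 scale in Python 3.11.15 (numpy 2.4.6, pandas 2.3.3). Genes with a probe detected on both arrays were compared, and a gene was called at 1.5-fold. With 1 array per condition the number of arrays limits the precision, and no test was run. The steps were tested on simulated data.

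Names came from the platform annotation (21703 probes, updated through the GRCh38.p14 RefSeq table) or the scanner file alone (965), and 1788 probes stayed unnamed. Promoter windows came from RefSeq (GRCh38.p14), for 23 of the 33 genes. Motifs were sought on both strands. Values in sentences were given for members past 1.5-fold in the main values or the value table, for those with probes of opposite direction and for the 10 brightest, and up to 4 genes of each other list with the largest ratios. Other members named were picked after their values were seen. The members and lists were chosen with earlier results of these data known. Alternatives were offset 0, no background correction, local background subtraction, median, 75th percentile and loess scaling, the value table, position correction of both, other probe and detection rules, and a 2-fold rule.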

Additional observations from a re-analysis of the deposited data

How the results depend on the processing

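With 1 array per condition no replicate error was available, and no paired analysis was possible because each condition had a single array. The count of 2 matrix genes at least 1.5-fold lower was 0 with the 2-fold rule, 0 with position correction and 1 among genes brighter than the median. It was 3 with offset 0, with no background correction, with the brightest probe of each gene and in the value table. With local background subtracted it was 2, but these were FN1 and SERPINH1 in place of BGN and TGFBI. The count of 1 higher was 0 with the 2-fold rule, 0 among genes brighter than the median, 0 with local background subtracted and 2 in the value table with position correction. The median log2 ratio of -0.08 was -0.15 in the value table, -0.13 in the value table with position correction, -0.17 among genes brighter than the median, -0.035 with local background subtracted and -0.048 with scaling to the 75th percentile. TGFBI turned to a log2 ratio of 0.22 with local background subtracted, where 1 of its 2 probes had a spot of 604 over a local background of 468 on the 2 Gy x 4 array and 1051 over 994 on the 0 Gy array. The local background followed the spot itself (Spearman correlation across spots 0.928 on the 2 Gy x 4 array and 0.943 on the 0 Gy array). For single matrix genes, 377 of 391 ratios under the alternatives kept their side of 1.5-fold, 5 no longer passed it, 8 newly passed it (4 of them THBS2) and 1, that of TGFBI, turned from a called value. Within 1.5-fold or not, 27 ratios of 18 genes changed direction. Over all genes the 178 lower and 53 higher were 820 and 405 with offset 0, 427 and 142 with no background correction, 588 and 461 with local background subtracted, 1156 and 707 in the value table, 78 and 37 with position correction, 651 and 535 with both, and 18 and 3 at 2-fold. The causes of these differences between settings were not tested. Dim spots limit COL1A1, COL1A2, COL3A1, COL5A2, COL6A3, HSPG2, LOXL1 and SPARC, which lay near the blank spots on at least 1 array.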

Other observations

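CCN1 and CCN2 are targets of YAP and TEAD, and 16 other such targets were detected on both arrays. Of these 7 were lower and 9 higher after IR, none reached 1.5-fold in the main values, and their median log2 ratio was 0.01, against 0.01 over all genes. The genes with the largest ratios ran in both directions. FOXF2, a forkhead factor, was at 1.42, F3, which encodes tissue factor, at 1.36, GADD45A, a stress-induced growth arrest gene, at 1.30 and ANKRD1, an ankyrin repeat protein, at 0.704.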
